A study of Mus musculus with 6 samples.

Results

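Heat shock chaperones were examined on expression arrays of 6 tumors, each grown from 4T1, a carcinoma line of the mouse mammary gland. The group was defined by name: Hspa1a, Dnajb1, Hsph1, Hsp90aa1, Hspb1, Hspb8, Bag3, Hspa4, Hspa9 and Hsf1. Among probe sets listing exactly 1 gene, the one with the largest average signal across arrays stood for its gene. This gave 9 of the 10 named genes, out of 19937 genes measured; Hsf1, which encodes the transcription factor of the heat shock response, had no probe set of its own and was not analysed here. Each Balb/C mouse received 750000 4T1 cells in the 4th mammary gland. From day 7, 3 mice were given water by mouth and 3 were given TKI258 at 40 mg/kg, in both groups daily for 14 days. The drug TKI258, also called dovitinib, blocks kinases of the FGF, VEGF and PDGF receptor families. Both groups carried the same cell line, each array measured 1 individual tumor, called a biological replicate in the titles, and the mice's age is not given in the sources used here.

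Heat shock proteins bind unfolded or partly folded proteins, and either return them to their native state or pass them on for degradation. In stressed cells HSF1 forms trimers, binds heat shock elements in promoters and induces a set of chaperone genes, while other chaperones are made at all times. HSP70 proteins work in cycles of ATP with J-domain proteins, which bring substrates, and nucleotide exchange factors, which release them; tumor cells often hold high levels of these proteins. Among the genes examined, 7 were placed in an inducible class (Hspa1a, Dnajb1, Hsph1, Hsp90aa1, Hspb1, Hspb8 and Bag3) and 2 in a constitutive class (Hspa4 and Hspa9), from general knowledge of the family.

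A heat shock element is built from inverted GAA units. Promoter windows of 250 bases before to 50 bases after a RefSeq transcription start (GRCm38.p6) were matched by symbol for 7 of the 10 genes; Hsp90aa1, Hspa9 and Hsf1 were not matched. The letters searched were GAANNTTC and TTCNNGAA, each of which reads the same on both strands, so that 2 units face each other. At least 1 match was present in 5 of the 7 matched genes and in 15.1% of all 32851 windows of this length. The 7 genes had 9 windows, 2 each for Dnajb1 and Hsph1. The count by gene and the share by window are therefore not like for like. The upstream 250 bases of 3 inducible genes whose TKI258 and water tumors did not overlap, and of the constitutive gene Hspa4 for contrast, are printed 5′ to 3′ on the gene's strand, with matches in capitals.
Hspa1a, chr17:34972157-34972406, minus strand: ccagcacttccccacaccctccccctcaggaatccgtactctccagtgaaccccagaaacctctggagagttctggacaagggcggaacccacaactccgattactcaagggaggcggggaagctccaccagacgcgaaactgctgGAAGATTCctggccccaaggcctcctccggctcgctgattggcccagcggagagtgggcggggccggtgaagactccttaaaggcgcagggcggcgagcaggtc
Hspb1, chr5:135887669-135887918, plus strand: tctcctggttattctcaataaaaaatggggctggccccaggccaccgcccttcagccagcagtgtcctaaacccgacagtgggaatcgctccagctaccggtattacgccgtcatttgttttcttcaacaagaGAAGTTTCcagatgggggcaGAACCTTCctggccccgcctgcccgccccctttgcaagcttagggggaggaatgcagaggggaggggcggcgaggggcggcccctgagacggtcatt
Hsph1, chr5:149636337-149636586, minus strand: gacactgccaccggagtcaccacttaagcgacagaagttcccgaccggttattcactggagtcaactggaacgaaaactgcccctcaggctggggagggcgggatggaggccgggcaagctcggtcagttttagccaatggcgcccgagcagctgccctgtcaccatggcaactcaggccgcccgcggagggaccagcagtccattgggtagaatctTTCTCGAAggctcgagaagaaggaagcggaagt
Hspa4, chr11:53300480-53300729, minus strand: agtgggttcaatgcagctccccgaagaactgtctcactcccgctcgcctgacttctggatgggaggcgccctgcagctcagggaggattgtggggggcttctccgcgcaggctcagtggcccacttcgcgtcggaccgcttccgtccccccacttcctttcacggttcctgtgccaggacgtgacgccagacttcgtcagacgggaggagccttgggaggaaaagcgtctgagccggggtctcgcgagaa

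The Hspa1a match began 104 bases before the start. Hspb1 held 2 matches, beginning 117 and 97 bases before its start. Hsph1 held 1 upstream match, 33 bases before its first annotated start, and a longer match after the start, in which 3 alternating units follow each other (GAANNTTCNNGAA, or TTCNNGAANNTTC on the other strand). This longer arrangement was found in 0.603% of all windows, and in Hsph1 alone among the genes matched here. Hspb8 and Bag3 each held 1 match in the part after the start. The matches after the start are given with up to 10 bases on each side, because they complete the picture of which inducible genes hold these letters.
Hsph1, chr5:149636283-149636310, minus strand, the first 2 of the 3 units in capitals: atgctgcagaTTCTGGAAagttctcctc
Hspb8, chr5:116422845-116422872, minus strand: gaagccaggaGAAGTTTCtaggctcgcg
Bag3, chr7:128523615-128523632, plus strand: gatgggaccaGAAGTTTC
Neither of the windows of Dnajb1, nor that of Hspa4, contained a match to these letters, which says nothing about sites outside the windows or with other letters. A match describes the sequence only; binding was not measured.

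In TKI258 tumors the mean signal of all 7 inducible genes was below that of water tumors, by 0.06 to 0.76 on the log2 scale, as was the mean of 43.4% of all genes, and of the 2 constitutive genes 1 was below and 1 above. The 3 TKI258 tumors all lay below the 3 water tumors for Hspa1a, Hsph1, Hspb1 and Hspa9. That is 4 of 9 genes, against 6.49% of all genes; 0 of 9 lay above without overlap, against 8.66% of all genes. None of the 9 passed limma's test (adjusted p = 0.484 to 0.929, Benjamini-Hochberg over 34760 probe sets), and neither did any other probe set (0% of all probe sets, with 2803 or 8.06% at an unadjusted p under 0.05). At an unadjusted limma p under 0.05 there were 3 of 9, namely Hsph1, Hspa1a and Hspb1, against 7.14% of all genes in either direction and 3.35% lower. Genes with strong signals were more often lower in TKI258 tumors in general: of 8908 genes with a mean signal at or above the lowest of the 9, 11.0% had all TKI258 tumors below all water tumors and 3.72% all above, 63.4% had a lower mean, and 5.24% were lower at an unadjusted limma p under 0.05. The median difference was 0.02 over all genes and -0.04 over these 8908, against -0.26 over the 7 inducible genes. That second set of genes was chosen after the values were seen. Its cut was a mean signal of 7.27, where the array medians were 6.38 to 6.44. The set was not matched to the signal of each gene, and some chaperone genes listed below lie under the cut. Because whole tumors were profiled, fewer cells of a type and less RNA per cell cannot be told apart.

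**Figure D1:**
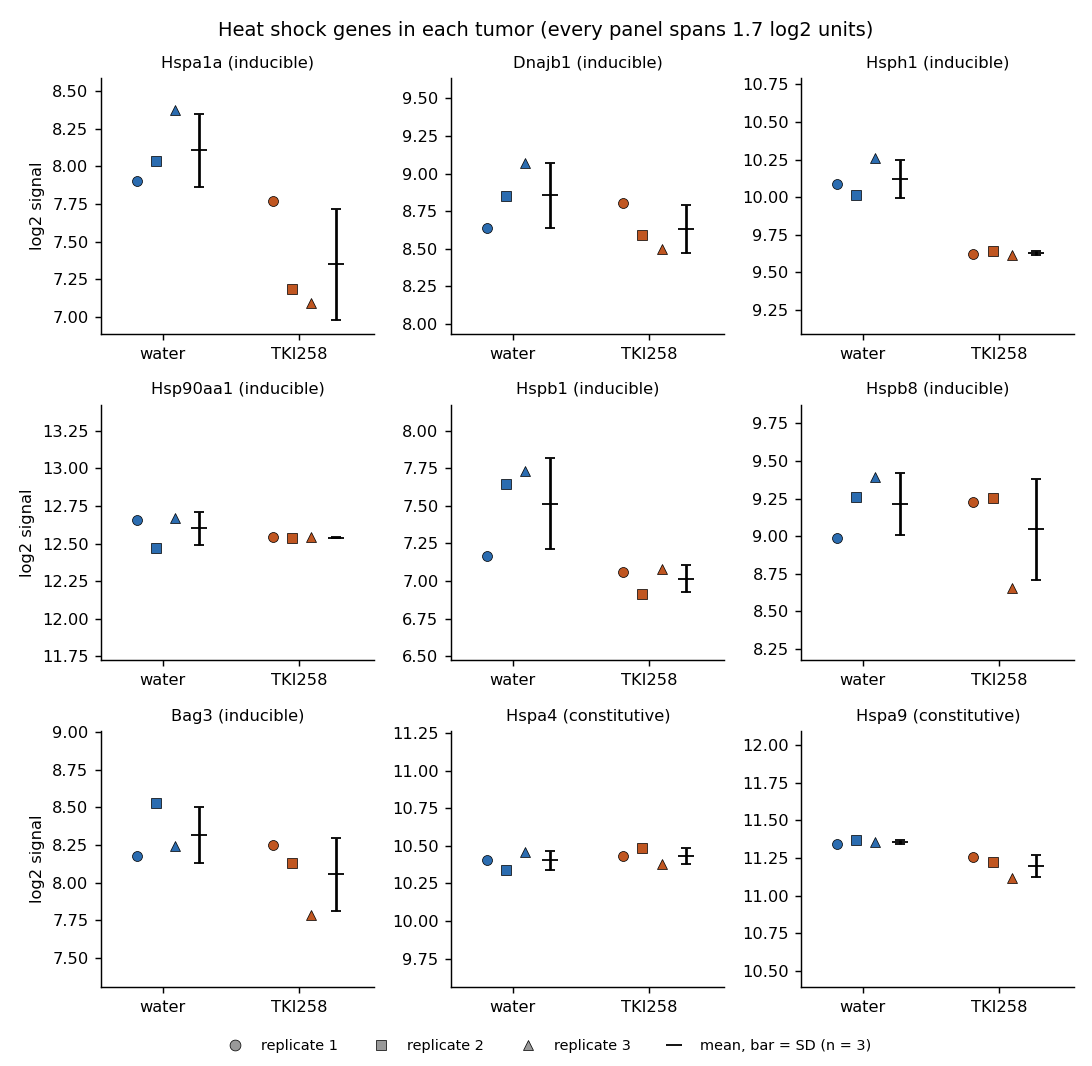
Log2 signal of the 9 heat shock genes in each tumor, 1 panel per gene with axes of equal span; points are single tumors (n = 3 per group) and the bar is the mean with its SD. Groups are apart for Hspa1a, Hsph1, Hspb1 and Hspa9 and overlap for the other 5 genes.

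Hspa1a encodes the stress-inducible cytosolic HSP70 and had the widest difference of the group. Its log2 signal was 7.90, 8.04 and 8.38 in water replicates 1, 2 and 3, and 7.77, 7.18 and 7.09 in TKI258 replicates 1, 2 and 3. Every TKI258 tumor was below every water tumor, but TKI258 replicate 1 lay only 0.13 below water replicate 1, and the TKI258 tumors spread over 0.68. The means were 8.11 ± 0.24 and 7.35 ± 0.37 (SD, n = 3), a log2 difference of -0.76 ± 0.21 (SE) or a 1.69-fold lower signal (limma adjusted p = 0.572). Hspa1a and its neighbour Hspa1b are near copies: their promoter windows share 296 of 300 bases, and both hold the same match at the same distance from the start. A probe set that lists both genes, and so names neither, had signals of 10.01, 10.41 and 10.95 in water and 9.75, 8.93 and 8.84 in TKI258 tumors, a difference of -1.29 ± 0.31 (limma adjusted p = 0.548). It put the tumors in the same order as the Hspa1a probe set did. This probe set was singled out after its values were seen.

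Dnajb1 encodes the J-domain partner (HSP40) that hands substrates to HSP70. Its signal was 8.64, 8.85 and 9.07 in water tumors and 8.80, 8.59 and 8.50 in TKI258 tumors. Water replicate 1 lay below TKI258 replicate 1, so the groups overlapped, and the difference of -0.22 ± 0.14 did not pass (limma adjusted p = 0.689). It ran from -0.33 to -0.12 with single tumors left out, and was -0.12 without water replicate 3. Hsph1 encodes HSP110, the inducible nucleotide exchange factor of HSP70. It was the member with the smallest limma p, with signals of 10.09, 10.01 and 10.26 in water tumors against 9.62, 9.64 and 9.62 in TKI258 tumors. The TKI258 tumors lay within 0.02 of each other and 0.37 below the lowest water tumor. The difference was -0.50 ± 0.09, a 1.41-fold lower signal, and it did not pass over all probe sets (limma adjusted p = 0.484).

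Hsp90aa1 encodes HSP90α, the stress-inducible cytosolic HSP90. The probe set with the highest mean read 12.66, 12.47 and 12.67 in water tumors and 12.54, 12.53 and 12.54 in TKI258 tumors. The TKI258 values lay inside the range of the water values, and the difference was -0.06 ± 0.09 (limma adjusted p = 0.853; -0.13 to -0.02 with single tumors left out). The array holds 2 other probe sets annotated to Hsp90aa1 alone, and both had TKI258 tumors below water tumors without overlap. One read 11.12, 11.26 and 11.10 in water and 10.76, 10.79 and 10.78 in TKI258 tumors, a difference of -0.38 ± 0.08 (limma adjusted p = 0.508). The other read 12.12, 12.10 and 12.23 in water and 11.96, 11.95 and 11.92 in TKI258 tumors, a difference of -0.20 ± 0.08 (limma adjusted p = 0.614). The 3 probe sets therefore disagree on whether the groups are apart, and which transcript or copy of the gene each one measures is not given in the sources used here. When the probe sets of each gene were averaged, 5 of 9 genes in place of 4 had all TKI258 tumors below all water tumors. In that setting the share was 6.52% of all genes and 11.1% of those with strong signal.

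**Figure D2:**
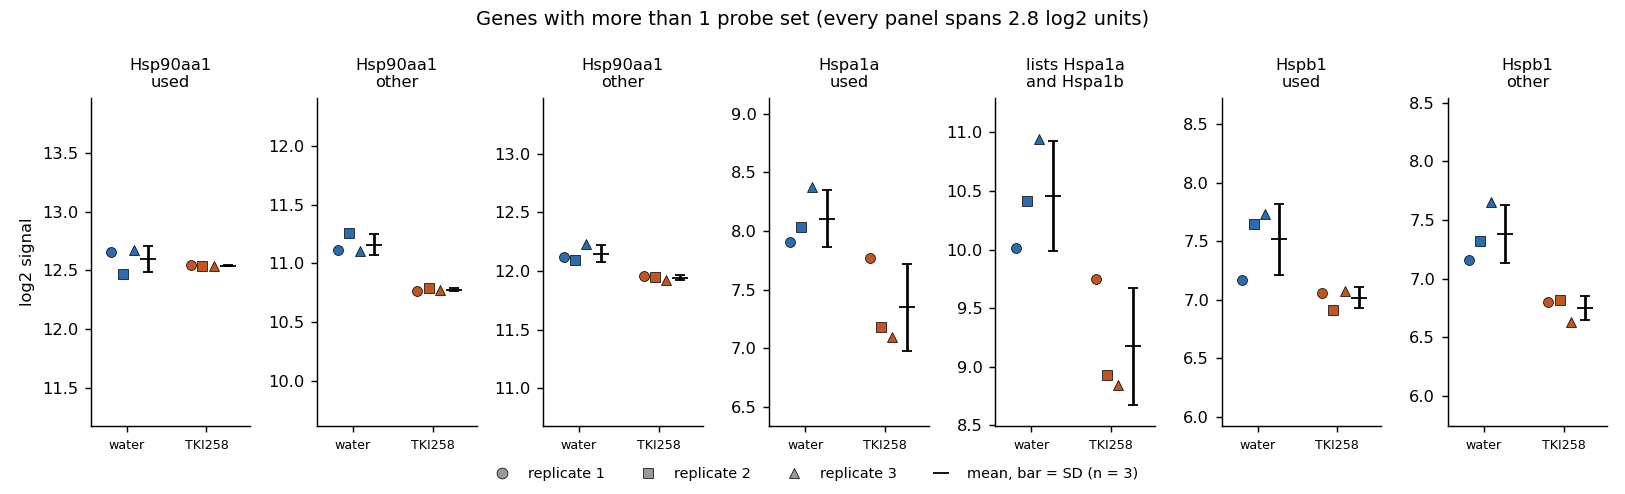
Log2 signal per tumor for every probe set of Hsp90aa1, Hspa1a and Hspb1, and for the one that lists both Hspa1a and Hspa1b, in panels of equal span; "used" marks the probe set with the highest mean. Groups overlap only in the Hsp90aa1 probe set that was used, and are apart in the other 6 panels.

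The small heat shock proteins hold unfolded proteins without ATP. Hspb1 encodes HSP27, which is abundant in epithelium and muscle. It read 7.17, 7.64 and 7.73 in water tumors and 7.06, 6.91 and 7.08 in TKI258 tumors. All TKI258 tumors were below all water tumors, with water replicate 1 only 0.09 above the highest TKI258 tumor. The difference was -0.50 ± 0.16, a 1.41-fold lower signal (limma adjusted p = 0.574). A further Hspb1 probe set gave -0.63 ± 0.14 (limma adjusted p = 0.527), again without overlap.

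Hspb8 encodes a small heat shock protein that works in a complex with the co-chaperone BAG3, which links HSP70 to selective autophagy. Hspb8 read 8.99, 9.26 and 9.39 in water tumors and 9.22, 9.26 and 8.66 in TKI258 tumors. Only TKI258 replicate 3 was below the water tumors, and without that tumor the difference turned from -0.17 ± 0.19 to 0.03. Bag3 read 8.18, 8.53 and 8.24 in water tumors and 8.25, 8.13 and 7.78 in TKI258 tumors, with TKI258 replicate 1 above 2 of the 3 water tumors. Its difference was -0.26 ± 0.16, and shrank to -0.12 without TKI258 replicate 3 and to -0.15 without water replicate 2. Neither partner passed (limma adjusted p = 0.805 for Hspb8 and 0.681 for Bag3), and both were lowest in TKI258 replicate 3.

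Of the constitutive chaperones, Hspa4 encodes a relative of HSPH1 in the HSP110 family and acts as a nucleotide exchange factor. It read 10.41, 10.34 and 10.46 in water tumors and 10.43, 10.48 and 10.38 in TKI258 tumors. The groups overlapped, with a difference of 0.03 ± 0.08 (limma adjusted p = 0.929). Its direction turned without water replicate 2 (-0.0027). Hspa9 encodes mortalin, the HSP70 of the mitochondrial matrix. It read 11.34, 11.37 and 11.36 in water tumors and 11.26, 11.22 and 11.11 in TKI258 tumors. The groups did not overlap, by a gap of 0.08, and the difference was -0.16 ± 0.08 (limma adjusted p = 0.663).

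The spread between tumors differed among the genes. The pooled SD within groups was 0.05 for Hspa9 and 0.06 for Hspa4, and 0.08 and 0.09 for the inducible genes Hsp90aa1 and Hsph1. It was 0.31 for Hspa1a, 0.28 for Hspb8, 0.22 for Hspb1 and Bag3 and 0.19 for Dnajb1. The median over all genes was 0.13, so 5 inducible genes varied more than the typical gene between tumors of 1 group and both constitutive genes varied less. Of the 7 inducible genes, 6 were highest in water replicate 3 and 5 were lowest in TKI258 replicate 3. The share of all genes with these extremes was not counted. TKI258 replicate 3 also had the lowest means of several chaperone lists described below. These were other heat-induced, mitochondrial, HSP90 co-chaperone, TRiC and prefoldin, other HSP70 and other J-domain genes. It was not lowest for endoplasmic reticulum chaperones, other small heat shock genes or other heat shock factors.

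The contrast of the classes was taken within each tumor, as the mean of the inducible genes minus the mean of Hspa4 and Hspa9, after each gene was centred on its mean over the 6 arrays. It was -0.01, 0.18 and 0.26 in water replicates 1 to 3 and -0.03, -0.18 and -0.22 in TKI258 replicates 1 to 3. The groups did not overlap, but water replicate 1 and TKI258 replicate 1 lay next to each other. The means were 0.14 ± 0.14 and -0.14 ± 0.10 (SD, n = 3), so the contrast differed by -0.29 between groups. The inducible mean differed by -0.35 and the constitutive mean by -0.06. The constitutive decrease is subtracted in the contrast, so the contrast is smaller than the inducible difference. The groups did not overlap for the constitutive mean either. They nearly touched there, at 0.0075 in water replicate 2 and 0.0055 in TKI258 replicate 2. No test was made of this contrast, because the genes were chosen with earlier results of these arrays known.

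**Figure D3:**
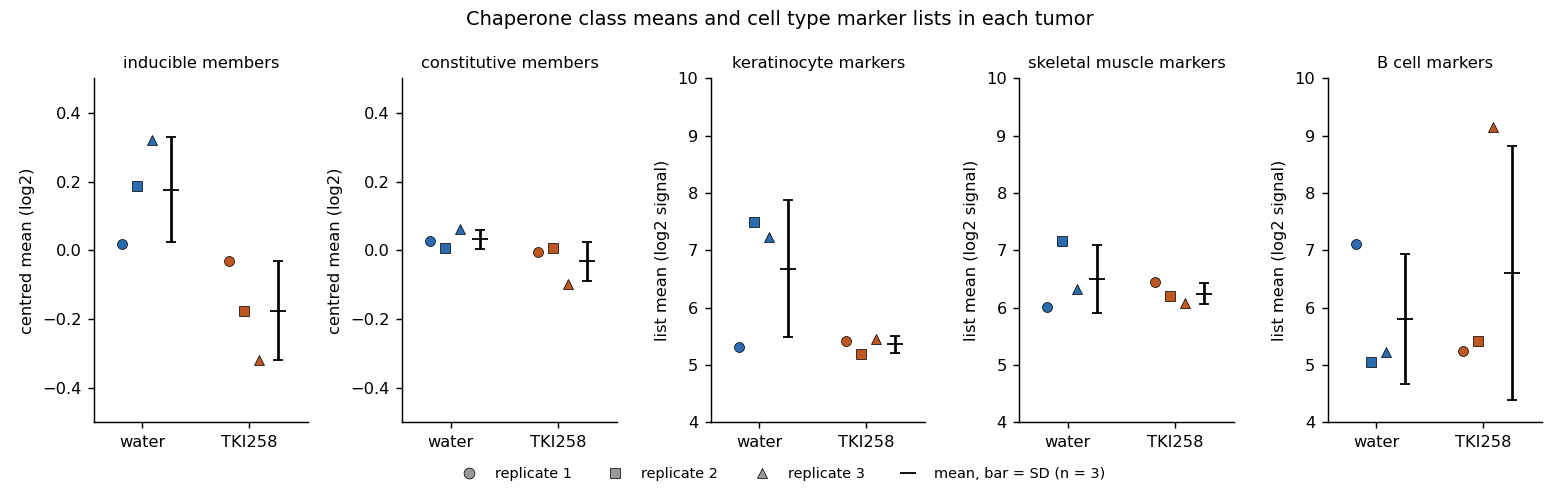
Class means of the inducible and constitutive genes in each tumor (each gene centred on its mean over 6 arrays), beside the list means of keratinocyte, skeletal muscle and B cell markers; points are tumors, bars the mean with its SD (n = 3). Inducible means run from 0.02 to 0.32 in water and from -0.32 to -0.03 in TKI258 tumors, keratinocyte markers are high in water replicates 2 and 3, and B cell markers are highest in TKI258 replicate 3.

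Marker lists of other cell types also differed between tumors, and the pattern was not the same for every list. Keratinocyte markers stood at list means of 7.50 (water replicate 2) and 7.24 (water replicate 3); water replicate 1 had 5.31, and the TKI258 tumors ranged from 5.19 to 5.46; all 10 had a lower mean in TKI258 tumors, and 2 of the 10 lay below the array median on every array. Set against water replicate 1 alone, which was low in these markers, Hsph1 differed by -0.46 and Hspa1a by -0.55. In the same setting, where the spread rests on the TKI258 tumors alone, Hspb1 differed by -0.15, Bag3 by -0.12, Dnajb1 by -0.0088 and Hspb8 by 0.06, the contrast of the classes was -0.13, and 1 gene in place of 3 had an unadjusted limma p under 0.05 (1.63% of all genes). In that setting of 1 water tumor, 5 of 9 lay below without overlap, against 19.2% of all genes and 26.0% of those with strong signal. Skeletal muscle markers were of interest because muscle holds much Hspb8, Bag3 and Hspb1. Their list mean was 7.17 in water replicate 2, where Bag3 was highest, against 6.01 to 6.45 in the other tumors. Hspb8 and Hspb1 were highest in water replicate 3, where the muscle list mean was 6.32. Of the muscle markers, 9 of 10 had a lower mean in TKI258 tumors and 3 of 10 lay below the array median on every array. B cell markers had a list mean of 9.16 in TKI258 replicate 3, where 6 of the 9 chaperones were lowest, and 7.11 in water replicate 1, against 5.06 to 5.42 in the other tumors; all 7 measured markers had a higher mean in TKI258 tumors. Without these 2 tumors Hspa1a differed by -0.73, Hsph1 by -0.51, Hspb1 by -0.70 and Dnajb1 by -0.26. Bag3 differed by -0.19, Hspb8 by -0.09 and Hsp90aa1 by -0.03. The constitutive genes differed by -0.13 (Hspa9) and 0.06 (Hspa4). With 2 tumors left in each group, 6 of 9 genes had all TKI258 tumors below all water tumors. The share was 16.1% of all genes and 22.8% of those with strong signal. Apart from these values, the part of other cell types in the differences was not tested. Krt8 and Krt18, keratin genes of simple epithelium chosen after their values were seen, had signals of 11.13 to 11.88. Both belong to the tumor epithelium list, where they were the only 2 of 7 genes with a lower mean in TKI258 tumors. The other 5 had a higher mean. Krt18 lay lower in all TKI258 tumors (11.13 to 11.44) than in all water tumors (11.58 to 11.70), by -0.32 ± 0.11 (limma adjusted p = 0.581), and Krt8 overlapped, with -0.13 ± 0.10. List means differed by 1.31 for adipocyte markers (8 of 8 higher), 0.24 for tumor epithelium (5 of 7 higher), -0.29 for macrophages (7 of 7 lower), -0.24 for endothelium (6 of 8 lower) and -0.06 for smooth muscle (3 of 7 lower, median 0.0097). The adipocyte list means were 7.03, 6.01 and 6.54 in water replicates 1 to 3. In TKI258 replicates 1 to 3 they were 7.13, 7.80 and 8.59, so the groups did not overlap. They were highest in TKI258 replicate 3, where the inducible class mean was lowest (-0.32), and a link between the 2 was not tested.

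The rest of the chaperone network was read from 9 lists, of which 90 genes were measured; Hspa1b and Hsp90ab1 had no probe set of their own and were not analysed here. No gene passed limma's test, and 70 had a lower and 20 a higher mean in TKI258 tumors, where 43.4% of all genes and 63.4% of those with strong signal had a lower mean. At an unadjusted limma p under 0.05 there were 7, all lower, beside 3.35% of all genes and 5.24% of those with strong signal. All TKI258 tumors lay below all water tumors for 21 of the 90, beside 6.49% of all genes and 11.0% of those with strong signal, and above for 2, beside 8.66% and 3.72%. The counts without overlap in the single lists are to be read beside the same shares. The median difference of the 90 was -0.07, nearer to that of the 8908 genes with strong signal (-0.04) than to that of the inducible genes.

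Other heat-induced genes had the lowest median difference of the 9 lists, -0.26, which was -0.14 without TKI258 replicate 3 and -0.17 without the keratinocyte-rich water replicates 2 and 3. All 7 measured had a lower mean, 5 of them without overlap. Hspa4l, another HSP110 gene, read 9.56, 9.54 and 9.74 in water tumors and 9.37, 9.40 and 9.05 in TKI258 tumors (-0.34 ± 0.12, limma adjusted p = 0.601). Chordc1, which encodes an HSP90 co-chaperone induced by heat, read 9.82, 9.86 and 9.83 in water and 9.63, 9.60 and 9.39 in TKI258 tumors (-0.30 ± 0.09, limma adjusted p = 0.574).

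Mitochondrial chaperones came next, with a median of -0.14, or -0.08 without TKI258 replicate 3 and -0.07 without water replicates 2 and 3; all 10 measured genes had a lower mean, 4 without overlap. The chaperonin genes Hspd1 (HSP60) and Hspe1 (HSP10) differed by -0.14 ± 0.10 and -0.15 ± 0.09, and the protease subunit gene Clpx by -0.30 ± 0.11. Dnaja3, the J-domain partner of mortalin, differed by -0.20 ± 0.11. HSP90 co-chaperones had a median of -0.07 (-0.03 without TKI258 replicate 3), with all 10 lower and 4 without overlap; Stip1, which joins HSP70 to HSP90, differed by -0.20 ± 0.09 and Cdc37, which brings kinases to HSP90, by -0.19 ± 0.10.

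The other lists had medians closer to 0, and several depended on the setting. Without TKI258 replicate 3 the median turned to 0.07 for other small heat shock genes and 0.01 for other HSP70 genes and cofactors. It shrank to -0.0070 for other J-domain genes and -0.0046 for TRiC and prefoldin. Other settings turned the first 2 lists as well. Without water replicate 1 and TKI258 replicate 3 the medians were 0.04 and 0.07. For other small heat shock genes the median was 0.06 without water replicates 2 and 3, and 0.03 without TKI258 replicate 2. With low-signal probe sets left out, that of the other heat shock factors turned from 0.07 to -0.05. Other HSP70 genes and their cofactors had a median of -0.04, with 10 of 14 lower and 4 without overlap; the constitutive HSP70 gene Hspa8 differed by -0.10 ± 0.08, and St13, whose product stabilises HSP70 with its substrate, by -0.20 ± 0.08. Hspa14 differed by -0.23 ± 0.10. Other J-domain genes had a median of -0.06, with Dnajc9 (-0.31 ± 0.10) and Dnajc8 (-0.30 ± 0.09) as the smallest in p. The cytosolic chaperonin TRiC and prefoldin, which fold actin and tubulin, had a median of -0.06, with Cct8 at -0.13 ± 0.08 and the prefoldin gene Vbp1 at -0.30 ± 0.16. Other small heat shock genes had a median of -0.02, and 5 of the 8 lay below the array median on every array. Cryab, the αB-crystallin gene, differed by 0.19 ± 0.26, opposite in sign to Hspb1; Cryaa and Hspb2 differed by 0.20 ± 0.14 and -0.11 ± 0.11. Of the other heat shock factors, Hsf2 differed by -0.14 ± 0.14 and Hsf5 by 0.14 ± 0.08, the latter with signals of 4.88 to 5.11, below every array median (6.38 to 6.44).

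Chaperones of the endoplasmic reticulum, which answer to the unfolded protein response in place of HSF1, had a median of -0.06 with 7 of 10 lower and 1 without overlap. Hspa5 (BiP) differed by -0.07 ± 0.08, Dnajb9 by -0.33 ± 0.11 and Dnajb11 by -0.19 ± 0.10.

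**Figure D4:**
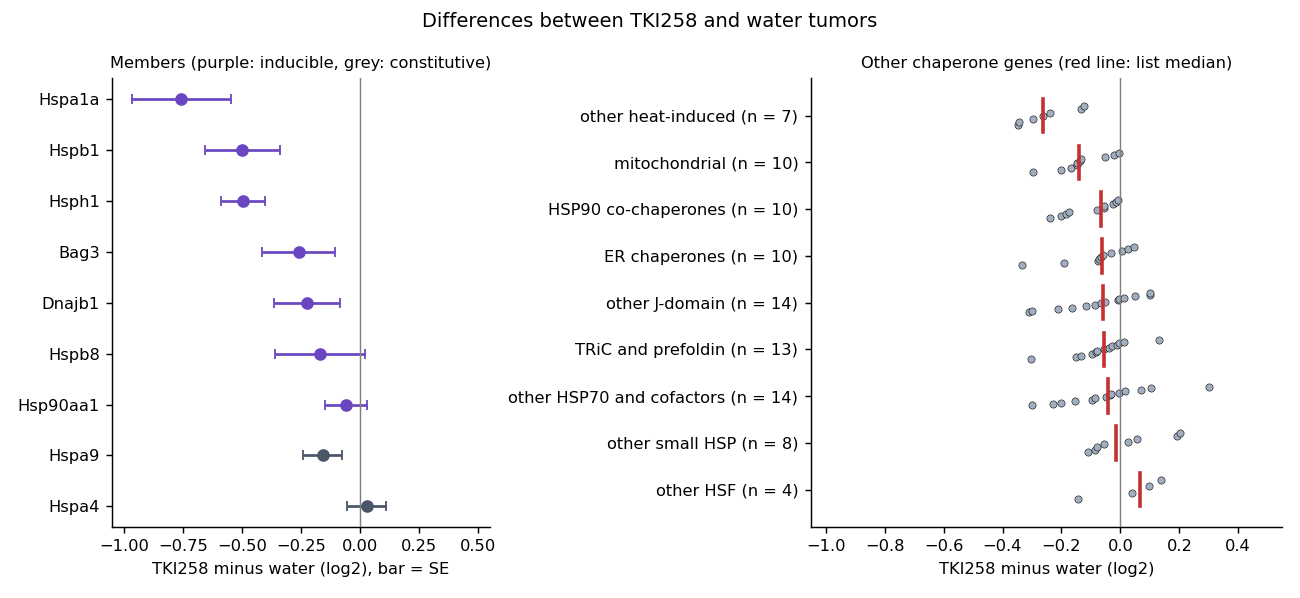
Differences between TKI258 and water tumors (log2): at left each of the 9 heat shock genes with its SE, at right the other chaperone genes as points by list, with the list median in red. Inducible genes lie between -0.76 and -0.06, and list medians between -0.26 for other heat-induced genes and 0.07 for other heat shock factors.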

How the data were processed

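RNA from 6 tumors was hybridized, 1 array per tumor. The authors deposited log2 signals per probe set, made with RMA; affy and limma are also named, without versions, per the submitters' processing notes. The genome build is not given in the sources used here. Of 34760 probe sets, 21640 listed 1 gene in the platform annotation, 1321 several and 11799 none; all 9 member symbols matched the reference by Entrez number. TKI258 was compared with water by limma (lmFit and eBayes; R 4.3.3, limma 3.58.1), two-sided, with group as the only term, no filter and Benjamini-Hochberg adjustment over all probe sets, threshold 0.05. The fit was tested on simulated data, with planted changes larger than any difference of the 9 genes. The simulation therefore does not show whether differences of their size would be called. Differences are TKI258 minus water; SE are the moderated ones. RMA can compress differences. Signals of different probe sets were compared only to choose a probe set per gene, to define genes with strong signal and to place genes against the array medians. The small number of arrays limits the precision.

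The members and lists were chosen with earlier results of these data known, so no list was tested. Named were all members, the 2 genes of each chaperone list with the smallest limma p, Hspa1b, Hspa8, Hsp90ab1, Hspd1, Hspe1, Cryab and Hspa5; Krt8, Krt18 and a probe set listing Hspa1a with Hspa1b were added after their values were seen. Cell type lists for keratinocytes, skeletal and smooth muscle, adipocytes, B cells, endothelium, macrophages and tumor epithelium were read as means per tumor.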

Additional observations from a re-analysis of the deposited data

How the results depend on the processing

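Other filters, normalizations, priors, weights and probe set choices, and each tumor left out, gave 0 passing members and 0 passing genes of the other chaperone lists in every setting run. Passing probe sets numbered 0 to 3 when single tumors were left out (3 without water replicate 1) and 1 without the pair of B cell-rich tumors (water replicate 1 and TKI258 replicate 3). Members without overlap numbered 4 to 6. Over all genes the share without overlap also grew with fewer tumors, from 6.49% with all of them to between 9.59% and 11.3% with single tumors left out. Among the genes with strong signal it grew from 11.0% to between 15.2% and 18.8%. The contrast of the classes was -0.36 to -0.23 with single tumors left out, -0.43 with Hspa1a, Dnajb1 and Hsph1 as the only inducible genes, and -0.13 without the keratinocyte-rich water replicates 2 and 3, where the lone water tumor is assumed to vary like the others. Direction turned for Hspa4 without water replicate 2 (-0.0027; -0.0027 to 0.057 over single tumors left out) and for Hspb8 without TKI258 replicate 3 (0.026; -0.28 to 0.026 over single tumors left out) or without water replicates 2 and 3 (0.057); the cause was not tested. Same-numbered tumors deviated from their group means with correlations of -0.23, 0.19 and 0.01. With 3 tumors per group, such correlations cannot settle whether the numbers pair the tumors. With the replicate block 0 probe sets and 0 members passed, and 2712 probe sets had an unadjusted limma p under 0.05, against 2803 without it. Adding Hsf1 to the constitutive class was not run, since it had no probe set. Adjusted p under 0.1 gave 0 members.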
